A study of Mus musculus with 20 samples.

Results

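Erythroid genes, the genes that developing red cells use, were examined in RNA sequencing of mouse cells taken from or grown beside glioma, and chiefly in the MDSC and MSC libraries that the study calls precursors of its transformed lines. The genes were chosen by symbol: the globin genes Hbb-bt and Hba-a1, the haem synthesis gene Alas2, the membrane gene Slc4a1, the erythropoietin receptor gene Epor, the transcription factor genes Klf1 and Gata1, and Ahsp. Of these 8 symbols, 7 were matched among 43432 genes, and Ahsp was not analysed here. All 7 had counts enough to be tested, as did 15780 genes in all.

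Red cells arise in the bone marrow, where erythropoietin acts through its receptor and the factors GATA1 and KLF1 switch on the genes of haemoglobin, haem and the red cell membrane. Maturing erythroblasts shed their nucleus, and the reticulocytes that remain still carry globin RNA. Myeloid-derived suppressor cells (MDSC) are immature granulocytes and monocytes that restrain immune responses, and mesenchymal stem cells (MSC) are stromal cells of the marrow. Neither is a cell of the red lineage.

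GATA1 binds DNA at short GATA motifs, and KLF1 at runs known as CACC boxes. The 250 bases before the RefSeq start of 4 genes are shown because these genes stand for 4 roles, a globin, haem synthesis, the receptor and a factor. They come from RefSeq on build GRCm38.p6, 5′ to 3′ on the gene's own strand. The RefSeq starts of Hbb-bt, Alas2 and Klf1 differ from the deposited ones, so their windows run into the deposited gene. Capitals mark each match, on either strand, to the GATA motifs AGATAA or AGATAG and TGATAA or TGATAG, or to the CACC motif CCNCNCCC, and overlapping matches run together. The windows are chr7:103813924-103814173 on the minus strand for Hbb-bt, chrX:150547167-150547416 on the plus strand for Alas2, chr9:21963577-21963826 on the minus strand for Epor and chr8:84901732-84901981 on the plus strand for Klf1.
Hbb-bt: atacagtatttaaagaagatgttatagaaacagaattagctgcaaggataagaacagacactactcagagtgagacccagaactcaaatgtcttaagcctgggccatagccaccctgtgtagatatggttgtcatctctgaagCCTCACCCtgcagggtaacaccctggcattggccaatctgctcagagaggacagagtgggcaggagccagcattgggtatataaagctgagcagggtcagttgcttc
Alas2: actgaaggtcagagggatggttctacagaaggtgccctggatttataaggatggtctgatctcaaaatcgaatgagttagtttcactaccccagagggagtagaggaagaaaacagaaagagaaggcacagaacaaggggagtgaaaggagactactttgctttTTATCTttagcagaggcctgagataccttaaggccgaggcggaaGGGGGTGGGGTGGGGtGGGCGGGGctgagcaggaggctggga
Epor: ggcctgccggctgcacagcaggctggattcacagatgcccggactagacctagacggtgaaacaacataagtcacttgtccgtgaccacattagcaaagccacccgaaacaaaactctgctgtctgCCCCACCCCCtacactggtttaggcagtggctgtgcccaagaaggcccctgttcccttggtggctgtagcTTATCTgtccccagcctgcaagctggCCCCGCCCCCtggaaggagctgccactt
Klf1: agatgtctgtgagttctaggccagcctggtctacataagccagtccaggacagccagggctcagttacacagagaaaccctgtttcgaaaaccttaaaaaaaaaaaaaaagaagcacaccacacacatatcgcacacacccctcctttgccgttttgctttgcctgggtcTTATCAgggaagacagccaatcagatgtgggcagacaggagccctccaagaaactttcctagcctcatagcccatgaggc
Hbb-bt held 1 CACC match and 0 GATA matches, and Klf1 held 1 GATA match and 0 CACC matches. Alas2 and Epor each held 1 GATA match and 4 CACC matches. Of the 7 genes, 6 had such a window, and 4 of the 6 held a GATA match, 4 a CACC match and 2 both. Among these, the Hba-a1 window also runs into the deposited gene, and the Gata1 window lies wholly inside it. Over all 32851 windows of that length, 26.5% held a GATA match, 45.9% a CACC match and 8.2% both.

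The 20 libraries carried 7 cell type labels, all from nude mice, which lack a thymus. The 5 lines, with 3 libraries each, are described as malignantly transformed host cells: C12, macrophages transformed in culture with SU3 peritoneal washings, SU3 being a line of human glioma stem cells; ih_CTC, macrophages of a peritoneal xenograft; ih_DCTC, bone marrow dendritic cells co-cultured with SU3; ih_STC_BM, mesenchymal stem cells from a tumour in a mouse with damaged and reconstructed marrow; and ih_BCTC, oligodendrocytes from a tumour grown in the brain. The other groups were MDSC, with 3 libraries and no tissue of origin named, and MSC, 2 libraries from normal bone marrow. Culture in DMEM with 10% fetal bovine serum is given with all samples, in a text that names MDSC, MSC and 4 of the 5 lines but not ih_BCTC. The labels also give a monoclonal culture step for malignant cells, MDSC and MSC alike, so a label may stand for 1 clone. No source used here gives the age of the mice.

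Total counts were 8794777 to 12400640 per library, so that 3 counts over a group, the floor used here for a group without counts, came to 0.0833 to 0.121 CPM in a line, 0.112 CPM in MDSC and 0.143 CPM in MSC. CPM are counts set relative to the library total after TMM scaling. The leukocyte gene Ptprc was at 0.147, 0.272 and 1.18 CPM (lowest, median, highest) in the 15 line libraries, those labelled as macrophages or dendritic cells included, and averaged 1555 ± 29.0 CPM in MDSC and 214 ± 32.2 CPM in MSC. Neutrophil markers summed to 40548 ± 1349 CPM in MDSC, and stromal markers to 6330 ± 237 CPM in MSC, beside 6818 ± 886 CPM of macrophage markers there. The 3 MDSC libraries differed from each other by little more than counting error, with a chi-square per degree of freedom of 1.73 to 3.32 for a pair, against 25.6 to 282 for pairs within the other groups. Nothing in the labels says that libraries of a group came from separate cultures or animals. The p-values therefore speak of the spread between libraries alone, which may be technical. Intronic reads made up 1.02% to 8.52% of the reads of line libraries, 9.64% to 10.4% of MDSC and 2.07% and 3.09% of MSC libraries.

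All 7 genes were higher in MDSC than in MSC, by edgeR at an adjusted p under 0.05, where 20.4% of all tested genes were called higher. None was called lower, against 25.6% of all genes. Summed over the 7 genes, the level was 5626 ± 335 CPM in MDSC and 4.38 ± 1.63 CPM in MSC (SD, n = 3 and 2). The median log2 fold change was 11.81 over the 7 genes and -0.07 over all tested genes. A gene that passed the filter on low counts only through its level in MDSC had to differ here, so the count of called genes is given as a description. In bulk RNA, fewer red-lineage cells and less of their RNA per cell cannot be told apart.

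**Figure D1:**
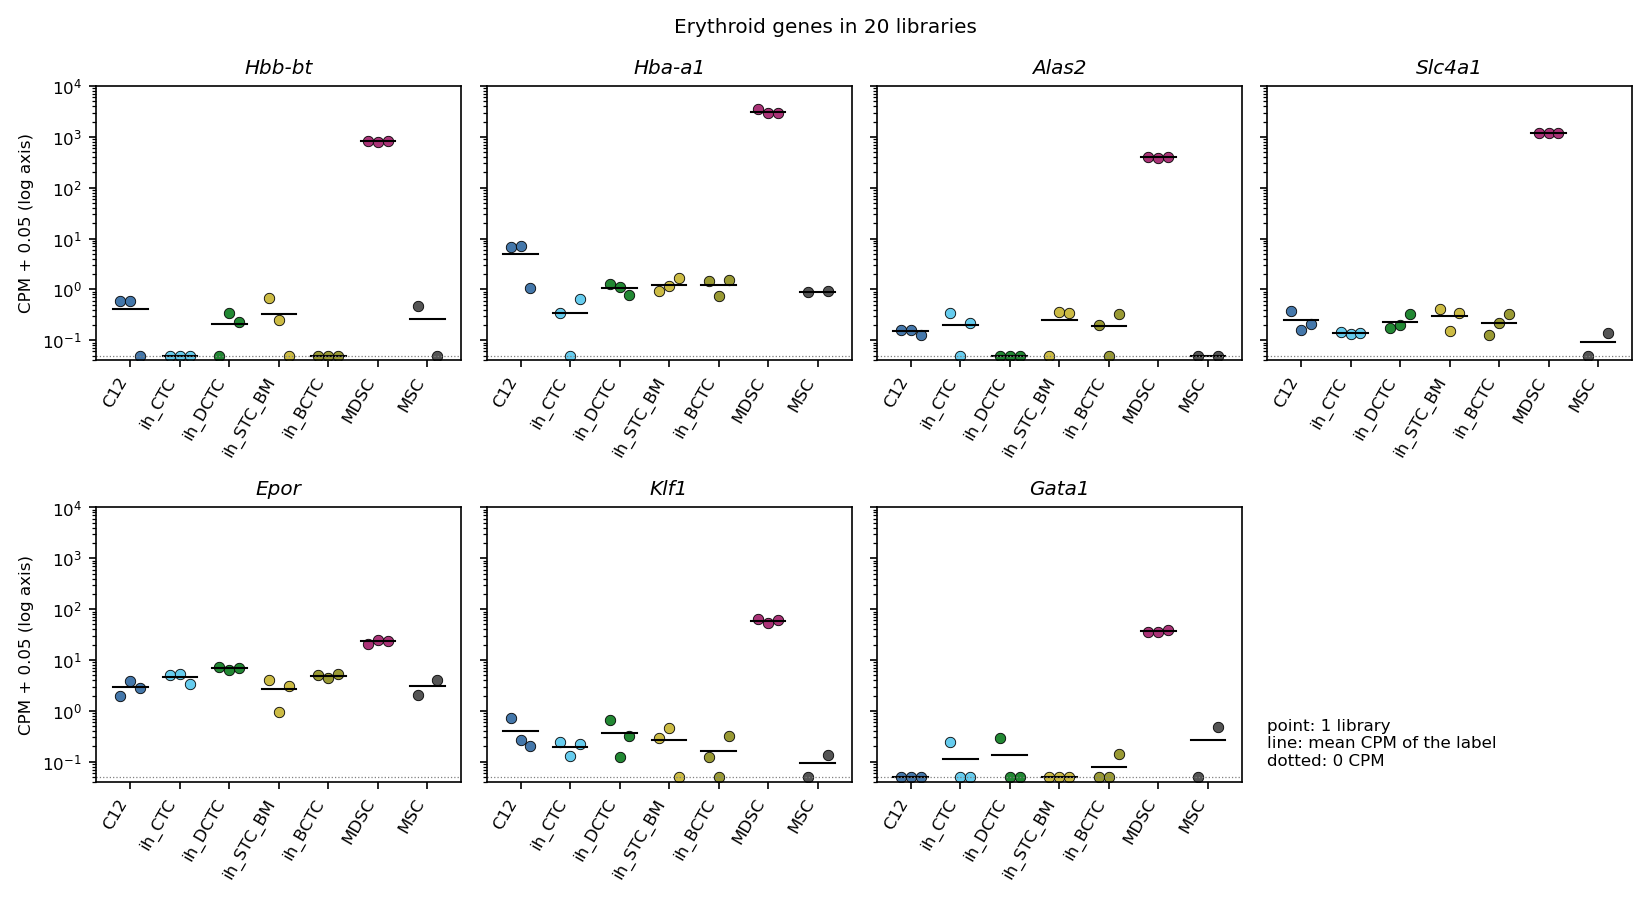
Level of the 7 erythroid genes in each of the 20 libraries, as CPM + 0.05 on a log axis, by cell type label (lines, then MDSC and MSC). Points are libraries, lines are means of a label and the dotted line is 0 CPM. The 3 MDSC libraries lie above all other libraries for every gene, and Epor has the smallest gap, with 7.22 CPM in the highest line library and 20.9 CPM in the lowest MDSC library.

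The globin genes encode the protein chains of haemoglobin. Hbb-bt (ENSMUSG00000073940, chromosome 7, 103812524 to 103813996, minus strand), an adult beta-globin gene, was at 827, 804 and 834 CPM in the MDSC libraries and at 0.416 and 0 CPM (4 counts and 0 counts) in the MSC libraries. Hba-a1 (ENSMUSG00000069919, chromosome 11, 32283511 to 32284465, plus strand), an adult alpha-globin gene, was at 3478, 2969 and 2894 CPM in MDSC and at 0.833 and 0.877 CPM in MSC. Both genes were high in every MDSC library and within a few counts of 0 in both MSC libraries. The log2 fold change was 11.96 ± 1.15 for Hbb-bt (SE; edgeR adjusted p = 2.32e-06) and 11.81 ± 1.0 for Hba-a1 (edgeR adjusted p = 7.71e-08). As ratios of pooled CPM, MDSC exceeded MSC 4319-fold for Hbb-bt (95% counting interval 1687 to 15852) and 3635-fold for Hba-a1 (95% counting interval 2300 to 6133). These intervals cover counting error only.

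Each of these genes has a near copy, Hbb-bs and Hba-a2, and estimated counts can move between copies, so the pair sums carry less uncertainty than single copies. In MDSC, Hba-a1 was at 3478, 2969 and 2894 CPM, while Hba-a2 was at 3137, 3444 and 4011 CPM in the same libraries. The library with the most Hba-a1 therefore had the least Hba-a2. The coefficient of variation was 10.2% for Hba-a1 and 3.73% for the pair. The alpha pair summed to 6644 ± 248 CPM and the beta pair to 8379 ± 246 CPM in MDSC (SD, n = 3). Hbb-bs supplied most of the beta pair, at 7557 ± 241 CPM in MDSC and 1.44 ± 1.05 CPM in MSC, with a log2 fold change of 12.36 ± 0.71 (edgeR adjusted p = 1.49e-09). The 4 adult globin genes together summed to 15023 ± 452 CPM in MDSC, and pooled over libraries MDSC exceeded MSC 4714-fold (95% counting interval 3712 to 6083). The embryonic genes Hbb-y and Hba-x had 0 counts in every library, and Hbb-bh1, also embryonic, had 1 count over the 3 MDSC libraries and 0 in MSC.

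**Figure D2:**
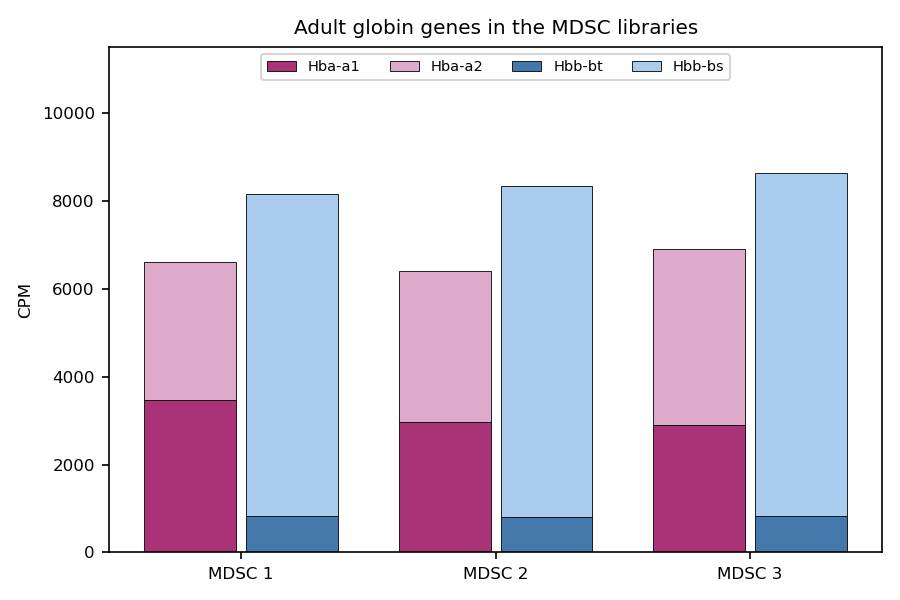
CPM of the adult globin genes in each MDSC library, with the alpha pair (Hba-a1 and Hba-a2) and the beta pair (Hbb-bt and Hbb-bs) as stacked bars from 0. The pair sums differ little between libraries, with 6644 ± 248 CPM for alpha and 8379 ± 246 CPM for beta, while the split between Hba-a1 and Hba-a2 shifts.

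Alas2 (ENSMUSG00000025270, chromosome X, 150547375 to 150570638, plus strand) encodes the erythroid form of the enzyme that starts haem synthesis. It was at 396, 389 and 395 CPM in MDSC and had 0 counts in both MSC libraries. Against the floor of 3 counts over the MSC group, Alas2 was at least 2755-fold higher in MDSC (edgeR adjusted p = 6.70e-08). Slc4a1 (ENSMUSG00000006574, chromosome 11, 102348824 to 102366203, minus strand) encodes band 3, the anion exchanger that ties the red cell membrane to its skeleton. It was at 1191, 1168 and 1173 CPM in MDSC and at 0 and 0.0877 CPM in MSC, which is 1 count in 1 library. The 2 groups were far apart, with a log2 fold change of 14.27 ± 0.64 (edgeR adjusted p = 1.71e-10) and a ratio of pooled CPM of 24739 (95% counting interval 4440 to 977183).

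Epor (ENSMUSG00000006235, chromosome 9, 21958899 to 21963576, minus strand) was the gene with the smallest difference of the 7. It was at 20.9, 24.9 and 24.1 CPM in MDSC and at 1.98 and 4.04 CPM in MSC, from 19 and 46 counts. MSC thus had a measurable level, which did not overlap that of MDSC. The log2 fold change was 2.94 ± 0.52 (edgeR adjusted p = 0.000201), and the ratio of pooled CPM was 7.51 (95% counting interval 5.81 to 9.85).

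Klf1 (ENSMUSG00000054191, chromosome 8, 84901928 to 84905295, plus strand) was at 63.0, 54.0 and 61.8 CPM in MDSC and at 0 and 0.0877 CPM in MSC. Gata1 (ENSMUSG00000031162, chromosome X, 7959260 to 7978071, minus strand) was at 35.5, 35.3 and 39.1 CPM in MDSC and at 0 and 0.439 CPM in MSC. Both factors were high in all MDSC libraries, and in MSC they rested on 1 and 5 counts, all in MSC 2. The log2 fold change was 9.97 ± 1.04 for Klf1 (edgeR adjusted p = 8.60e-07) and 7.23 ± 1.11 for Gata1 (edgeR adjusted p = 0.000148). With the intron share as a covariate, the Gata1 difference was 8.42 and did not pass (edgeR adjusted p = 0.140), while the other 6 genes still passed. GATA1 also acts in megakaryocytes, and MSC 2 held more counts than MSC 1 of the megakaryocyte and platelet genes Itga2b (149 and 7), Ppbp (156 and 2) and Gp5 (29 and 0), though not of Vwf, at 26.6 CPM in MSC 2 and 85.1 CPM in MSC 1. Summed over the whole list of 12, MSC 2 stood at 839% and MSC 1 at 621% of the MDSC level. Neutrophil markers were also higher in MSC 2, at 0.413% of MDSC against 0.0488% in MSC 1, as were mast cell, basophil and eosinophil markers, at 1.37% against 0.577%. The part of any of these cells in the 5 Gata1 counts was not tested.

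Levels per kilobase of merged exon allow genes to be set side by side within MDSC. In CPM per kilobase, Hbb-bs stood at 9840 ± 314, Hba-a2 at 5293 ± 665, Hba-a1 at 3834 ± 391 and Hbb-bt at 1169 ± 22.8. Slc4a1 followed at 241 ± 2.49 and Alas2 at 164 ± 1.73. The factors and the receptor were lowest, with Klf1 at 38.9 ± 3.21, Gata1 at 15.03 ± 0.864 and Epor at 11.7 ± 1.07 (SD, n = 3 throughout). The exon lengths are those of GENCODE M21, in which the positions of Epor and Klf1 differ from the deposited ones.

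The lines were set against MDSC to ask how far red-lineage RNA was present in them. They are described as transformed macrophages, dendritic cells, mesenchymal stem cells and oligodendrocytes, and none as grown from the MDSC sampled here. In each of the 5 lines, 7 of 7 genes were lower than in MDSC by edgeR at an adjusted p under 0.05. The share of all tested genes called lower was 30.5% in C12, 27.1% in ih_CTC, 28.1% in ih_DCTC, 29.4% in ih_STC_BM and 27.3% in ih_BCTC. The median log2 fold change of the 7 genes was -11.20 in C12, -11.27 in ih_CTC, -11.59 in ih_DCTC, -11.35 in ih_STC_BM and -11.34 in ih_BCTC, against 0.03 to 0.10 for all tested genes. As against MSC, a gene that passed the filter on low counts only through MDSC had to differ, so these counts too are a description. These comparisons share the MDSC libraries, so they are not independent of each other.

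Over the 15 line libraries the lowest, median and highest levels were 0, 0 and 0.616 CPM for Hbb-bt, 0, 0.110 and 0.304 CPM for Alas2, and 0.0751, 0.150 and 0.370 CPM for Slc4a1. They were 0, 0.192 and 0.659 CPM for Klf1 and 0, 0 and 0.249 CPM for Gata1. No line library had more than 6 counts of any of these 5 genes, and none reached a MDSC library. As a share of the pooled MDSC level, the lines stood at 0.0176% for Hbb-bt, 0.0289% for Alas2, 0.0145% for Slc4a1, 0.359% for Klf1 and 0.0859% for Gata1. At so few counts the order of the lines cannot be read, and neighbouring labels overlapped for Hbb-bt, Slc4a1, Klf1 and Gata1 in all places below MDSC.

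Of the 7 genes, Hba-a1 and Epor had more than 6 counts in some line libraries. Hba-a1 was at 6.70, 7.01 and 1.02 CPM in C12, from 61, 64 and 13 counts, against 3478, 2969 and 2894 CPM in MDSC. In the other lines it ranged from 0 to 1.61 CPM. In the edgeR fit of all 20 libraries it was the one gene of the 7 called in a line against MSC, with a log2 fold change of 2.49 ± 0.73 in C12 against MSC (edgeR adjusted p = 0.0140). In that comparison 14.7% of all tested genes were called higher and 18.4% lower. The call was lost without either MSC library, at an edgeR adjusted p of 0.0983 without MSC 1 and 0.0918 without MSC 2, and by limma-voom at an adjusted p of 0.111. Of the counts of the alpha pair, Hba-a1 took 138 of 150 in C12 (92.0%, 95% Wilson interval 86.5% to 95.4%), 52.6%, 46.3% and 41.9% in the 3 MDSC libraries, and 18 of 34 in MSC (52.9%, 95% Wilson interval 36.7% to 68.6%). In ih_STC_BM it took 29 of 35 (82.9%, 95% Wilson interval 67.3% to 91.9%), which overlaps the interval of C12. It took 43 of 62 in ih_BCTC, 32 of 53 in ih_DCTC and 10 of 36 in ih_CTC. These intervals cover counting error only, and estimated counts can move between the copies. The MDSC libraries differed by more than counting error.

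In ih_CTC, ih_DCTC, ih_STC_BM and ih_BCTC, edgeR called 0 of 7 genes against MSC in either direction. The shares of all tested genes called higher were 14.7%, 16%, 14.8% and 15.9% in that order of lines, and those called lower 19.9%, 18.1%, 17.3% and 20.8%. At an unadjusted p under 0.05, 1 gene was higher in ih_DCTC (Epor) and 1 in ih_STC_BM (Alas2), and 0 in ih_CTC and ih_BCTC. Alas2 rested on 5 counts over ih_STC_BM and 0 over MSC. After adjustment, DESeq2 called 1 gene in ih_DCTC (Epor) and limma-voom 1 in ih_STC_BM (Slc4a1), and neither called any in the other lines of these 4. The shares of all tested genes at an unadjusted p, by DESeq2 and by limma-voom are not reported here, so these counts are a description.

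Epor had at least 9 counts in every library. It was at 1.87, 3.84 and 2.82 CPM in C12, 5.09, 5.30 and 3.34 CPM in ih_CTC, and 7.22, 6.24 and 7.07 CPM in ih_DCTC. In ih_STC_BM it was at 4.07, 0.912 and 3.08 CPM, and in ih_BCTC at 4.96, 4.39 and 5.24 CPM. MDSC, at 23.3 ± 2.12 CPM, stood above ih_DCTC, and ih_DCTC above ih_BCTC, without overlap. Below these, ih_BCTC, ih_CTC, MSC, C12 and ih_STC_BM overlapped from each to the next in the order of their means. Against MDSC the log2 fold change was -3.03 ± 0.44 in C12, -2.34 ± 0.43 in ih_CTC, -1.77 ± 0.42 in ih_DCTC, -3.12 ± 0.45 in ih_STC_BM and -2.26 ± 0.42 in ih_BCTC, with edgeR adjusted p of at most 0.00157. Against MSC it was 1.18 ± 0.48 in ih_DCTC (edgeR adjusted p = 0.0706), and in the other lines between -0.18 in ih_STC_BM and 0.68 in ih_BCTC. The lines were not tested against each other.

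The other genes of the red lineage were taken from lists of 147 genes in all, which also hold markers of other cells. As for the chosen genes, a list gene that passed the filter on low counts only through MDSC had to differ. Counts of called list genes are therefore a description. In the list of red cell membrane and skeleton genes, 15 of 16 were higher in MDSC than in MSC, against 20.4% of all tested genes. Epb42, Rhag and Add2, which encode further membrane and skeleton proteins, had 0 counts in MSC. Sptb, which encodes beta-spectrin, was at 297 ± 4.55 CPM in MDSC and at 0.833 and 1.32 CPM in MSC, a log2 fold change of 8.08 ± 0.64 (edgeR adjusted p = 3.68e-08). Tmod1, which caps actin filaments, did not pass, at 25.2 ± 2.10 CPM in MDSC and 17.6 and 5.18 CPM in MSC. Of 10 red cell enzyme and maturation genes, 5 were higher, 1 was lower and 4 did not pass, where 20.4% of all tested genes were higher and 25.6% lower. Car2, a carbonic anhydrase gene, was at 627 ± 10.1 CPM in MDSC and at 0.312 and 1.14 CPM in MSC, while Cat, which encodes catalase and is used by many cell types, was lower, with 77.5 ± 2.79 CPM in MDSC and 289 and 236 CPM in MSC.

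Genes of haem synthesis and mitochondrial iron import, most of which every cell uses, differed less than Alas2. Of 11 genes, 10 were higher in MDSC (20.4% over all tested genes) and 1 did not pass, and their median log2 fold change was 2.12. Slc25a37, which encodes the mitochondrial iron importer mitoferrin 1, was at 534 ± 8.99 CPM in MDSC and at 45.1 and 72.3 CPM in MSC. Tmem14c was at 115 ± 2.78 CPM in MDSC and 134 and 118 CPM in MSC and did not pass. In the list of 4 iron uptake genes, 0 were higher and 1, the metal transporter gene Slc11a2, was lower, at 32.7 ± 2.15 CPM in MDSC and 90.6 and 84.9 CPM in MSC. That count is close to the 25.6% of all tested genes called lower. The transferrin receptor gene Tfrc was at 708 ± 11.6 CPM in MDSC and 316 and 532 CPM in MSC, a log2 fold change of 0.74 ± 0.65 (edgeR adjusted p = 0.366).

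Of 12 further transcription factor genes of the red lineage, 10 were higher in MDSC than in MSC, against 20.4% of all tested genes. Nfe2 was at 156 ± 4.84 CPM in MDSC and at 0.416 and 2.28 CPM in MSC, and E2f2 at 194 ± 3.49 CPM in MDSC and at 14.6 and 16.1 CPM in MSC. Lmo2, which encodes a partner of the blood stem cell factor TAL1, and Lyl1 did not pass. Lmo2 was at 133 ± 2.14 CPM in MDSC and at 154 and 119 CPM in MSC, and Lyl1 at 72.6 ± 1.81 CPM in MDSC and at 61.9 and 60.1 CPM in MSC. Both were at or below 0.293 CPM in every line library, and every line was lower than MSC in them, with a log2 fold change for Lmo2 of -9.60 ± 0.70 in ih_STC_BM (edgeR adjusted p = 1.93e-08) to -10.97 ± 0.74 in ih_BCTC (edgeR adjusted p = 6.31e-09). Of 9 genes of erythropoietin and stem cell factor signalling, 8 were tested, and 5 were higher, 1 was lower and 2 did not pass, beside the same 20.4% higher and 25.6% lower over all tested genes. Pim1, a kinase gene that STAT5 induces, was at 843 ± 16.1 CPM in MDSC and at 37.6 and 30.3 CPM in MSC, and the lower gene was Bcl2l1, which encodes the survival protein BCL-XL, at 44.9 ± 2.55 CPM in MDSC and at 225 and 181 CPM in MSC. Many of these genes are used by granulocytes and other myeloid cells too.

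**Figure D3:**
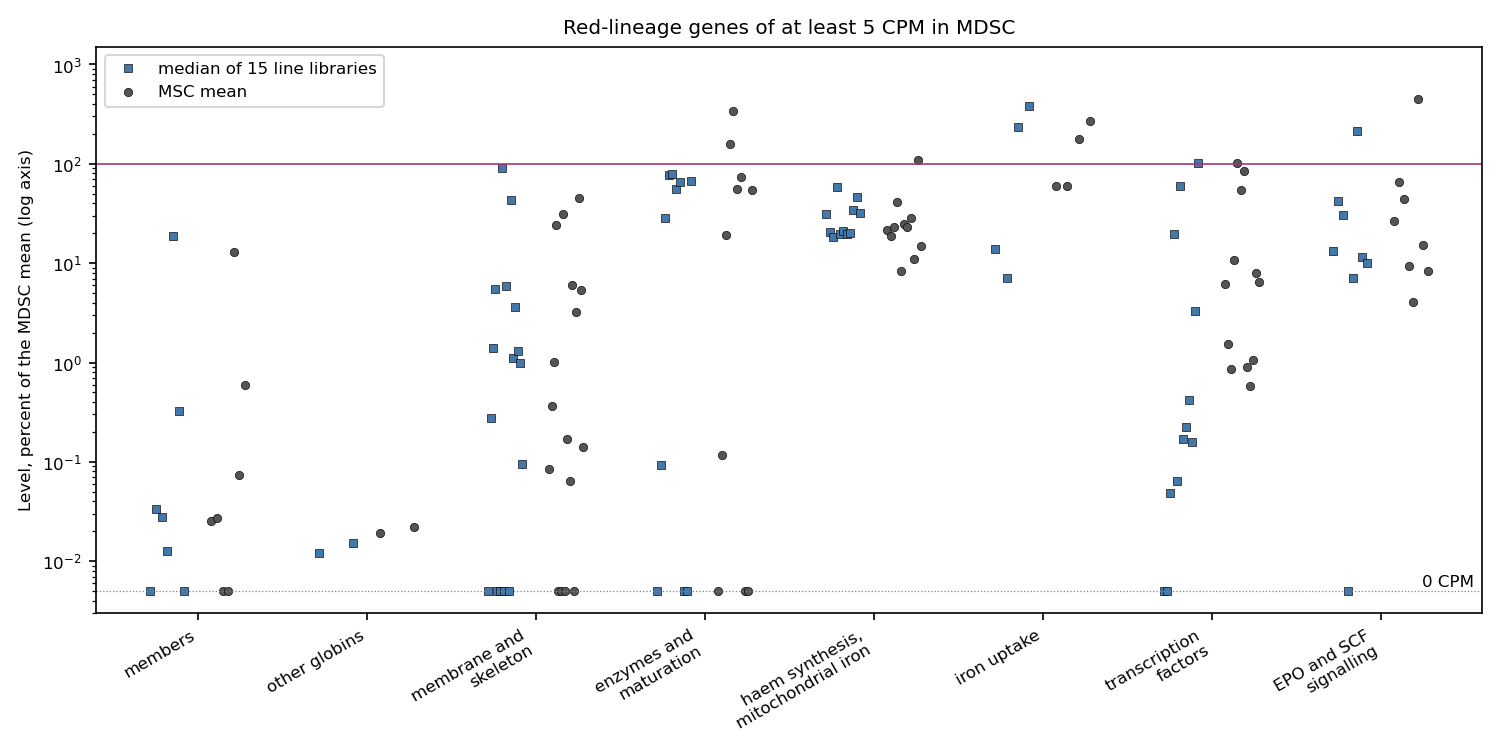
Level of red-lineage genes with at least 5 CPM in MDSC, as a percent of the MDSC mean on a log axis, by list. Squares are the median of the 15 line libraries, circles the mean of the 2 MSC libraries, the solid line is the MDSC mean and the dotted line 0 CPM. Of the 7 chosen genes 6 lie under 1% of MDSC in both, while all 11 haem synthesis and mitochondrial iron genes lie above 1% in both.

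The same lists were read in the lines against MDSC. Of the 16 membrane genes, 14 or 15 were lower in each line, and of 12 factors 10 to 12 were, where 27.1% to 30.5% of all tested genes were lower. Of 11 haem and mitochondrial iron genes 8 to 10 were lower and 0 higher. In the 4 iron uptake genes, Slc11a2 was higher in all 5 lines, with a log2 fold change of 0.94 ± 0.24 in ih_STC_BM (edgeR adjusted p = 0.00298) to 2.40 ± 0.25 in ih_DCTC (edgeR adjusted p = 3.61e-07). The shares of all tested genes called higher were 31.3% in C12, 28.2% in ih_CTC, 31.2% in ih_DCTC, 32.3% in ih_STC_BM and 28.7% in ih_BCTC. Among the factors, Gata2, which acts before Gata1 in blood progenitors, was higher in ih_STC_BM (1.11 ± 0.29, edgeR adjusted p = 0.00309) and lower in ih_CTC (-0.91 ± 0.29, edgeR adjusted p = 0.0136), and the other 3 lines did not pass.

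Markers of other blood cells moved with the erythroid genes. Set against MDSC, the summed MSC level was 0.0778% for the 7 erythroid genes, 0.0209% for the other globins and 0.231% for 12 neutrophil markers, which were at 0.0488% in MSC 1 and 0.413% in MSC 2. It was 0.972% for mast cell, basophil and eosinophil markers, 1.34% for B cell markers and 1.37% for T and NK cell markers. All 12 neutrophil genes, all 9 tested B cell genes and all 8 T and NK cell genes were called higher in MDSC, against 20.4% of all tested genes. Those that passed the filter on low counts only through MDSC had to differ, so these counts are a description. The T cell genes Cd3d, Cd3e and Cd3g had 0 counts in MSC. The MDSC libraries carried the B cell gene Cd79a at 424 ± 14.0 CPM and Cd3d at 26.7 ± 2.70 CPM beside the globin RNA. The part of these cells in the erythroid values was not tested. In the other direction, MSC stood at 905% of MDSC for macrophage markers, 730% for megakaryocyte and platelet markers and 10605% for stromal markers. Most of the megakaryocyte sum in MSC was Pf4, at 3.48 ± 0.827 CPM in MDSC and 232 and 370 CPM in MSC, and Gp9 and Gp5 had 0 counts in MSC 1.

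**Figure D4:**
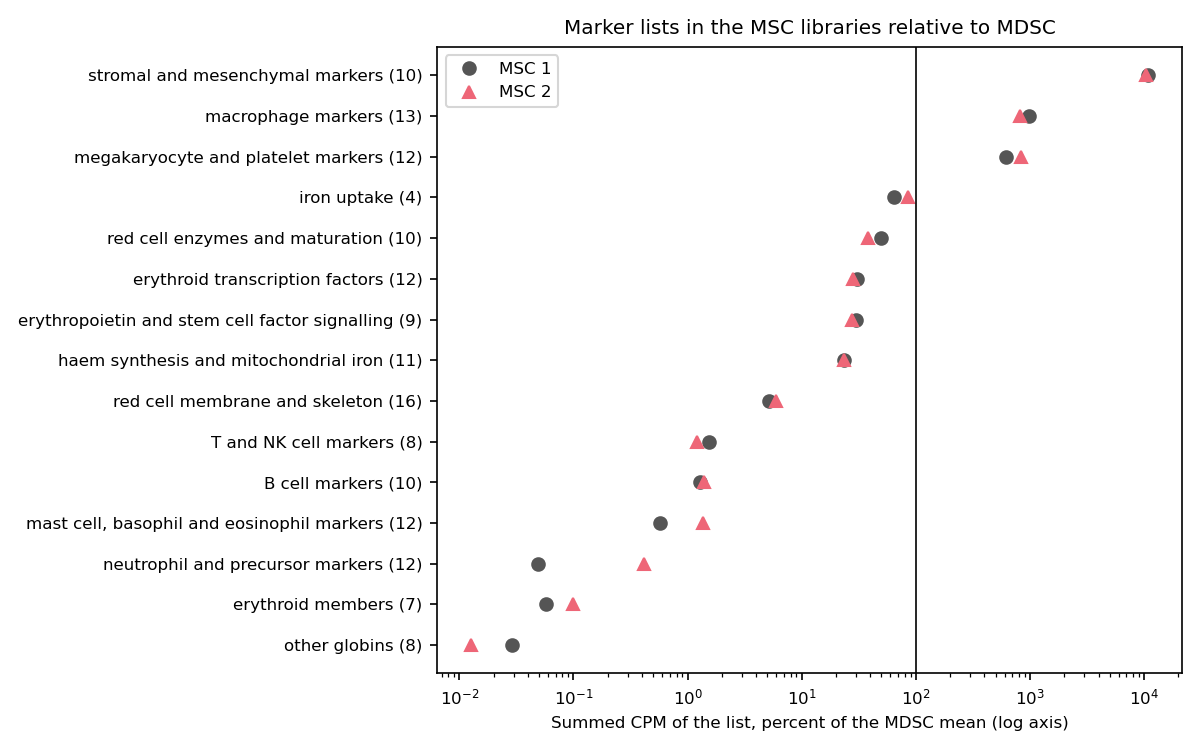
Summed CPM of each gene list in the 2 MSC libraries as a percent of the MDSC mean, on a log axis, with the number of genes in brackets. The other globins, the 7 erythroid genes (0.0574% in MSC 1 and 0.0983% in MSC 2) and the neutrophil markers (0.0488% in MSC 1 and 0.413% in MSC 2) lie lowest, iron uptake lies nearest to the 100% line, and macrophage, megakaryocyte and stromal lists lie above it.

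The genes most like the 7 in their levels over the 20 libraries were sought among 6829 genes outside the lists with at least 20 CPM in MDSC, by Pearson r with the mean profile of the 7. They were Slc38a5 (r = 0.9952), Abca13 (r = 0.9951), Slco4c1 (r = 0.9945), Gzma (r = 0.9945) and H2-Ob (r = 0.9939). Slc38a5 encodes an amino acid transporter, Gzma a protease of cytotoxic lymphocytes and H2-Ob an MHC class II chain of B cells. Slc38a5 was at 33.0 ± 1.30 CPM and Gzma at 23.7 ± 1.18 CPM in MDSC, and both had 0 counts in MSC. In all, 46 of the 6829 genes had an r of at least 0.98. The 20 points share 1 group that stands apart, MDSC, so a high r says only that a gene is high in MDSC and near 0 elsewhere. The r of the 7 genes themselves with their mean ran from 0.851 for Epor to 0.995 for Slc4a1.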

How the data were processed

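RNA of 20 mouse samples with 7 cell type labels was extracted with TRIzol and made into TruSeq libraries, per the labels. The authors deposited expected counts, estimated reads per Ensembl gene, of which 8.37% were not whole, beside a table of reads with percent mapped and percent in introns per library. STAR, RSEM 1.2.26 and DESeq2 are named, without roles, per the submitters' processing notes, with a genome build not given in the sources used here. Of 43432 gene identifiers, 42462 were in GENCODE M21, 33460 of them at the same position.

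Rounded counts were TMM-scaled and filtered in edgeR 4.0.16 (R 4.3.3) with filterByExpr by group (minimum count 10, minimum total 15), which left 15780 genes. A single quasi-likelihood model, with group means, used all 20 libraries (13 residual degrees of freedom), and 11 comparisons were tested two-sided with Benjamini-Hochberg adjustment over all tested genes at 0.05. No test was run on a list. Where a group had 0 counts, a fold is a lower bound against 3 counts over the group; otherwise the ratio of pooled CPM has a 95% counting interval. The symbols were looked up in the deposited annotation, and 4 list genes with older symbols were matched by identifier. The chosen genes and the lists were settled with earlier results of these data known. Besides the 7 genes, up to 3 genes of each list with the highest MDSC mean, up to 2 with the highest MSC level relative to MDSC at 5 CPM or more in MDSC, markers at 0 counts and the 5 genes most alike could be named. Hbb-bh1, Epb42, Rhag, Rhd, Add2, Ppbp, Gp5, Gp9, Gata2, Ptprc, Cd3e and Cd3g were named for their counts or levels after these were seen, and some list genes are not reported here by name. Likeness used log2 CPM with a prior count of 2. Alternatives were other scalings (RLE, upper quartile), no low count filter, limma-voom (limma 3.58.1), DESeq2 1.42.0, the compared groups only, leaving out each library, leaving globins out of library totals and the intron share as a covariate. Summing the MDSC libraries to 1 was added after seeing how alike they were. The test was checked on simulated counts, with a mean shared by all groups except in a small set of changed genes. In MDSC against MSC, 2 of 67 genes changed 2-fold were called, 21 of 67 changed 4-fold and 56 of 66 changed 16-fold. In C12 against MDSC these were 4 of 67, 39 of 67 and 61 of 66. Of unchanged genes, 2 of 14782 and 5 of 14751 were called. Far fewer genes were changed there than were called in the data, at 20.4% higher and 25.6% lower in MDSC against MSC. The adjusted p cut was thus stricter in the simulation, and its rates do not carry over to the data. A gene that did not pass can still differ. Tables and figures used Python 3.11.15.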

Additional observations from a re-analysis of the deposited data

How the results depend on the processing

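No paired analysis was possible because the labels give no replicate numbers that the groups share. Over the 6 comparisons with MDSC, 88 of 89 alternative counts equalled 7 of 7 genes, also with the 3 MDSC libraries summed to 1. The exception was the intron share as a covariate in MDSC against MSC, with 6. All alternatives reused the same MDSC libraries, and a gene that passed the filter on low counts only through MDSC had to differ. The number of equal counts is therefore a description too. No called difference changed direction in these alternatives. Against MSC, where counts are few, calls came and went. C12 had 0 genes higher by limma-voom, with the compared groups only and without either MSC library, a range of 0 to 1 over left-out libraries, and 1 lower by DESeq2 (Gata1, adjusted p = 0.0419). With the intron covariate 1 gene was higher in each of ih_CTC, ih_DCTC and ih_BCTC (Epor), and by DESeq2 1 in ih_DCTC (Epor, adjusted p = 0.0410). ih_STC_BM had 1 higher by limma-voom (Slc4a1, adjusted p = 0.0307) and 0 to 1 over left-out libraries, with Alas2 called without ih_STC_BM 1. The causes were not tested, and the shares of all tested genes called in these alternatives are not reported here. In the compared groups only, C12 against MSC gave no value for 5 of the 7 genes. The summed level of the 7 genes in MDSC was 6105 CPM under RLE and 5006 CPM under upper quartile scaling, against 5626 CPM. These scalings moved the median of all genes by -0.09 to -0.15 and 0.17 to 0.27 in lines against MDSC, and by 0.07 and -0.13 in MDSC against MSC. Levels under 3 counts a group could not be told from 0 at this depth.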

Other observations

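The embryonic beta-globin gene Hbb-bh1 had 30 counts over the 15 line libraries, at most 0.995 CPM in 1 library, 1 count over MDSC and 0 over MSC. It was not tested, and Hbb-y and Hba-x had 0 counts in the lines.

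Several red cell membrane genes had measurable levels in every line library. Gypc, which encodes glycophorin C, was at 33.7, 68.9 and 119.6 CPM in the 15 line libraries (lowest, median, highest), against 75.6 ± 4.20 CPM in MDSC, and Epb41, which encodes protein 4.1, was at 1.25, 14.2 and 37.1 CPM, against 259 ± 4.41 CPM in MDSC. The water channel gene Aqp1 was at 96.5, 178 and 830 CPM (lowest, median, highest of 15 line libraries), against 409 ± 5.13 CPM in MDSC (n = 3). The blood group gene Rhd was at 1.42, 6.62 and 17.97 CPM in the line libraries, against 112 ± 3.61 CPM in MDSC, and MSC had 4 counts of it in all.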
